A study of Mus musculus with 15 samples.

Results

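Lung fluid ion and water transport was followed here through 9 genes, taken by symbol from the deposited count tables, which list 23420 genes each. They are the chloride pathways Cftr, Clcn2 and Clcn3, the sodium channel subunits Scnn1a, Scnn1b and Scnn1g, the cotransporter Slc12a2, the sodium pump subunit Atp1b1 and the water channel Aqp1. All 9 passed the filter on low counts in both tables. Whole lungs of mouse embryos gave the RNA, all wild-type and of the outbred strain CD1, and the labels name no allele, transgene or agent besides pressure. In the culture experiment, lungs isolated at E12.5 (E for embryonic day) were held for 48 h at high pressure (3 libraries, each from 3 pooled lungs) or at low pressure (3 libraries, each from 6 pooled lungs). The labels give no size of either pressure. In the time series, lungs were taken straight from embryos at E12.5 (6 lungs in each pool), E13.5 (3 lungs) and E14.5 (3 lungs), again with 3 libraries per stage. The series title names transmural pressure, the pressure across the airway wall, as its subject, together with branching of the airways. Low pressure and E12.5 are thus also the groups with the larger pools, and these differences cannot be told apart. Whether the 3 pools of a group are different litters or different cultures is not in the labels, and the p-values cover the spread among pools alone, which may be technical.

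The lumen of the fetal lung is filled with fluid that its own epithelium secretes. Chloride enters the epithelial cell from the tissue side through the sodium-potassium-chloride cotransporter Slc12a2, driven by the sodium gradient that the sodium pump maintains. It leaves on the luminal side through chloride channels, and sodium and water follow. Around birth the epithelium turns to absorbing this fluid, with sodium entering through the epithelial sodium channel, which is built from alpha (Scnn1a), beta (Scnn1b) and gamma (Scnn1g) subunits.

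The genes lie on several chromosomes of the mouse assembly GRCm38, the build also called mm10. The gamma and beta subunit genes lie close together on chromosome 7: Scnn1g spans chr7:121734479-121768475 and Scnn1b spans chr7:121865038-121918514, both on the plus strand and 96.562 kb apart in the GENCODE M21 annotation, with 1 annotated gene (Gm44740) between them. Scnn1a lies apart from them on chr6:125320659-125344943, on the same chromosome as Cftr (chr6:18170687-18322768) and Aqp1 (chr6:55336432-55348555). Atp1b1 spans chr1:164437109-164458355 on the minus strand. The other members are Clcn2 (chr16:20702964-20717746), Clcn3 (chr8:60910389-60983300) and Slc12a2, placed with its values. Some exons are shared with other genes, and as no strand setting of the counting is stated, such reads could not be told apart. Atp1b1 shares 575 exon bases with Nme7 on the opposite strand, Cftr shares 129 with the antisense gene Gm15592, and Clcn2 shares 82 with Polr2h and 85 with Fam131a.

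The 250 bases just before the annotated start of Scnn1g, Scnn1b and Atp1b1 are printed because these 3 members were higher at high pressure and had their highest mean of the time series at E14.5. The sequences are RefSeq's for GRCm38.p6, whose promoter table matched 7 of the 9 members. They read 5′ to 3′ on each gene's own strand, and capitals mark every match, on either strand, to GGGCGG (the GC box), to CCAAT (the box of that name) and to CAAGTG (the core bound by NK2 homeodomain factors). TATAAA (the TATA box), the cyclic AMP response element TGACGTCA and the steroid receptor site TGTTCT were searched too and matched none of these 3 windows.
Scnn1g, chr7:121734229-121734478, plus strand: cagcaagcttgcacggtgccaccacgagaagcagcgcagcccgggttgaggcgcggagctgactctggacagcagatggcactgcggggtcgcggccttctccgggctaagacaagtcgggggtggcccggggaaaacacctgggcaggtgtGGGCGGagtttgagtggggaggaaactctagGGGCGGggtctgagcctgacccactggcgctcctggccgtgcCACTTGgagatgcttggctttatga
Scnn1b, chr7:121864788-121865037, plus strand: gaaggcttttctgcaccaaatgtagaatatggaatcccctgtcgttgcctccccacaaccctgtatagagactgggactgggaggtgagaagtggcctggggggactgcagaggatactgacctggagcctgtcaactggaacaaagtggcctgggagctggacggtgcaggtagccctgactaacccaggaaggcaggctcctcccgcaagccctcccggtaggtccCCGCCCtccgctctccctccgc
Atp1b1, chr1:164458356-164458605, minus strand: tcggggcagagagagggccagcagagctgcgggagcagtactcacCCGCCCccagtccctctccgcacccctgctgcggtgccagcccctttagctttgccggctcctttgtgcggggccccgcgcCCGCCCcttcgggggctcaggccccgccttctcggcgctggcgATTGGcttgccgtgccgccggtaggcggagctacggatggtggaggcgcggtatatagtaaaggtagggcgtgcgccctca
Scnn1g holds GC boxes that begin 98 and 67 bases before its start and an NK2 core that begins 25 bases before it. Scnn1b holds a GC box 22 bases before its start, and Atp1b1 holds GC boxes at 205 and 124 bases and a CCAAT box at 81 bases. Over windows of the same length before 32851 starts in the RefSeq table, 32.74% hold the GC box, 33.85% the CCAAT box and 11.61% the NK2 core. The GC box is the only searched motif that all 3 windows share, and it is common over all windows. The windows of Cftr, Clcn2 and Aqp1 hold it too, and so does a window of Clcn3, though not the other.

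Total counts were 40167255 to 44341263 per library at high pressure, 31843739 to 38288861 at low pressure and 18837343 to 21955244 in the time series. Some libraries stood apart from their groups. Low pressure replicate 3 had counts for 14637 genes, against 16509 to 16726 in the other cultured libraries. In the time series, replicate 1 of every stage gave 3.59% to 4.36% of its counts to ribosomal protein genes, against 1.77% to 2.24% in replicates 2 and 3. The ribosomal share was also 3.06% to 3.36% at high pressure against 1.93% to 2.20% at low pressure. Values with and without these libraries are given beside the results that rest on them. Levels are CPM, that is counts scaled to a library size of 1000000 with edgeR's TMM factors, computed within each table, and SDs are over 3 libraries. Lung epithelium, the site of this transport, was present in every library by its markers, while the ionocyte markers, which define a rare airway cell rich in Cftr, summed to at most 0.767 CPM in any library and Foxi1 averaged 0 CPM in every group except low pressure (0.00867 CPM).

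**Figure D1:**
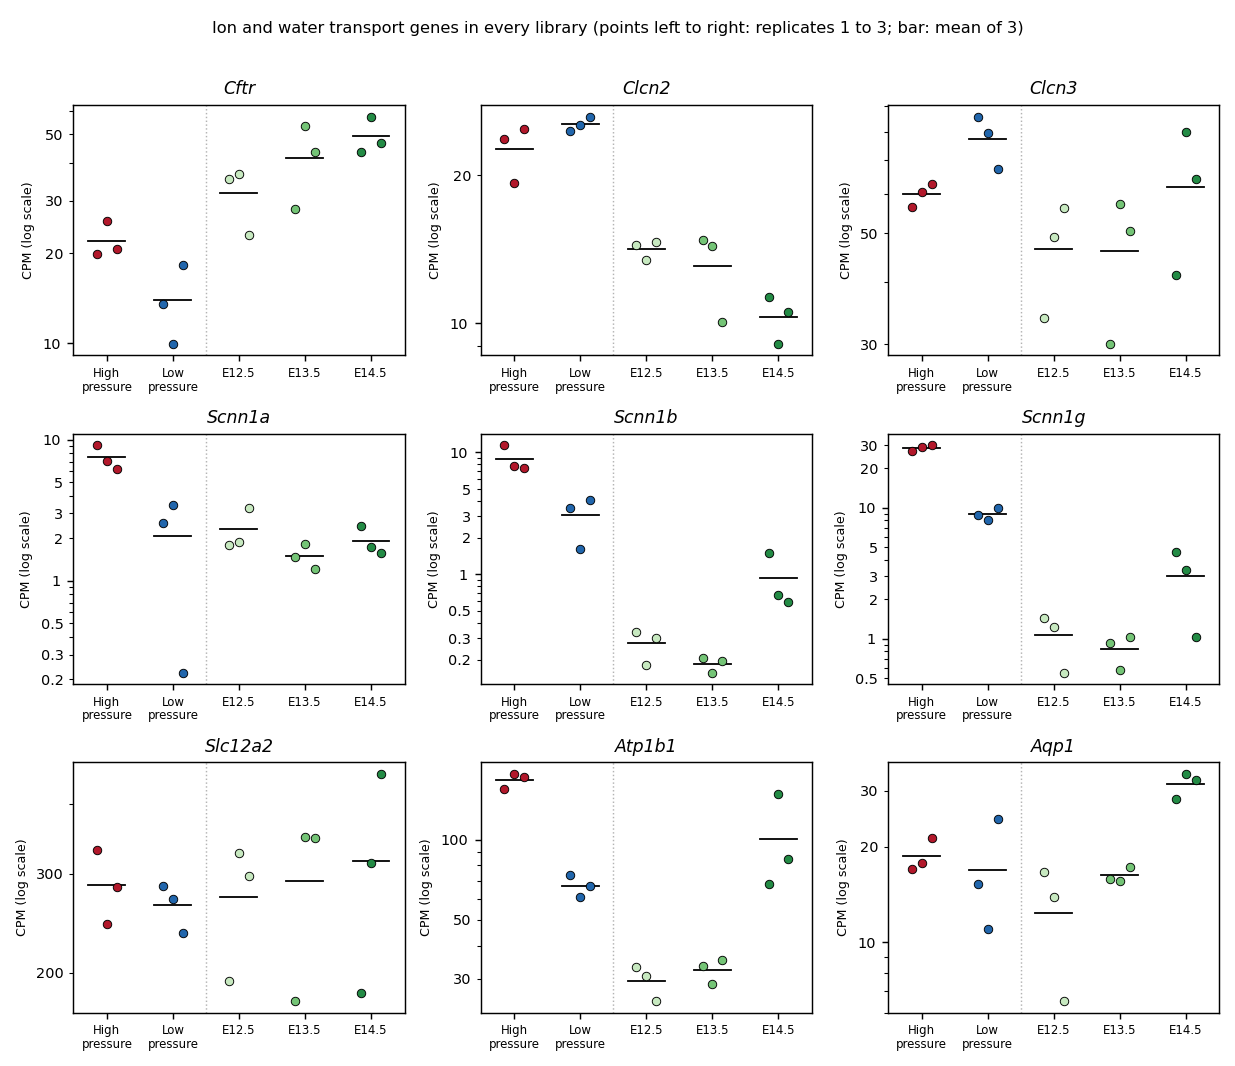
Level of each of the 9 genes in every library, in CPM on a log axis, with high and low pressure cultures left of the dotted line and the stages E12.5, E13.5 and E14.5 right of it. Points are replicates 1 to 3 and bars are means. Cftr, Scnn1a, Scnn1b, Scnn1g and Atp1b1 lie higher at high pressure than at low pressure with no overlap, and Clcn3 lies lower with no overlap. For Scnn1b, Atp1b1 and Aqp1 every E14.5 library lies above those of both earlier stages.

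High pressure was compared with low pressure to ask which parts of the transport machinery differ with the load on the airway wall. The sodium channel genes Scnn1b and Scnn1g and the sodium pump gene Atp1b1 rose 2.50-fold to 3.20-fold, Clcn3 fell, and Slc12a2, Clcn2 and Aqp1 overlapped between the pressures. Thus 3 members rose and 1 fell at an adjusted p below 0.05 in edgeR's quasi-likelihood test, where 14.0% of the 14937 genes tested rose and 12.2% fell (26.1% in either direction). The 3 cultures at high pressure lay wholly above those at low pressure for 5 members and wholly below for 1, against 25.0% and 21.8% of all genes tested. The median member log2 fold change was 0.66, against 0.01 over all genes tested. In whole lungs, fewer cells of a type and less RNA per cell cannot be told apart.

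The gamma subunit Scnn1g is the sodium channel subunit with the highest level in culture. It had 27.1, 29.0 and 29.9 CPM at high pressure, against 8.86, 8.07 and 9.998 CPM at low pressure. Its groups were far apart, with a tight spread within each. The log2 fold change was 1.68 ± 0.14 (SE), or 3.20-fold, with an adjusted p of 0.000393, and it stayed between 1.61 and 1.76 when any library was left out, with every call kept. The beta subunit Scnn1b had 11.4, 7.75 and 7.41 CPM at high pressure, against 3.48, 1.61 and 4.06 CPM at low pressure. Here too the groups did not overlap, with high pressure replicate 1 the highest library. The log2 fold change was 1.54 ± 0.35 (SE, adjusted p = 0.0146). Without high pressure replicate 1 it was 1.32 with an adjusted p of 0.0622, so that call rests on this library.

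The alpha subunit Scnn1a, which newborn mice need to clear the fluid from their lungs, had 9.14, 7.09 and 6.23 CPM at high pressure, against 2.58, 3.43 and 0.224 CPM at low pressure. The groups did not overlap, but low pressure replicate 3 held only 7 counts, against 83 and 132 in its companions. With a log2 fold change of 1.84 ± 0.67 (SE), Scnn1a had the widest error of the 9 members and missed the threshold (adjusted p = 0.0768). Without low pressure replicate 3, the library with few genes detected, the log2 fold change was 1.31 ± 0.24 (SE) and the adjusted p 0.00181.

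Atp1b1, the beta subunit that brings the sodium pump to the cell surface, had 155, 177 and 172 CPM at high pressure, against 73.4, 61.0 and 66.9 CPM at low pressure. No culture at high pressure came near any culture at low pressure. The log2 fold change was 1.32 ± 0.10 (SE), or 2.50-fold, with an adjusted p of 0.000369, and it ranged from 1.26 to 1.39 with each library left out. The chloride-loading cotransporter Slc12a2 (chr18:57878678-57946821) had 330, 244 and 284 CPM at high pressure, against 285, 271 and 235 CPM at low pressure. The pressures overlapped, with high pressure replicate 1 the highest library. Its log2 fold change was 0.12 ± 0.13 (SE, adjusted p = 0.533), a difference smaller than the spread between pools.

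**Figure D2:**
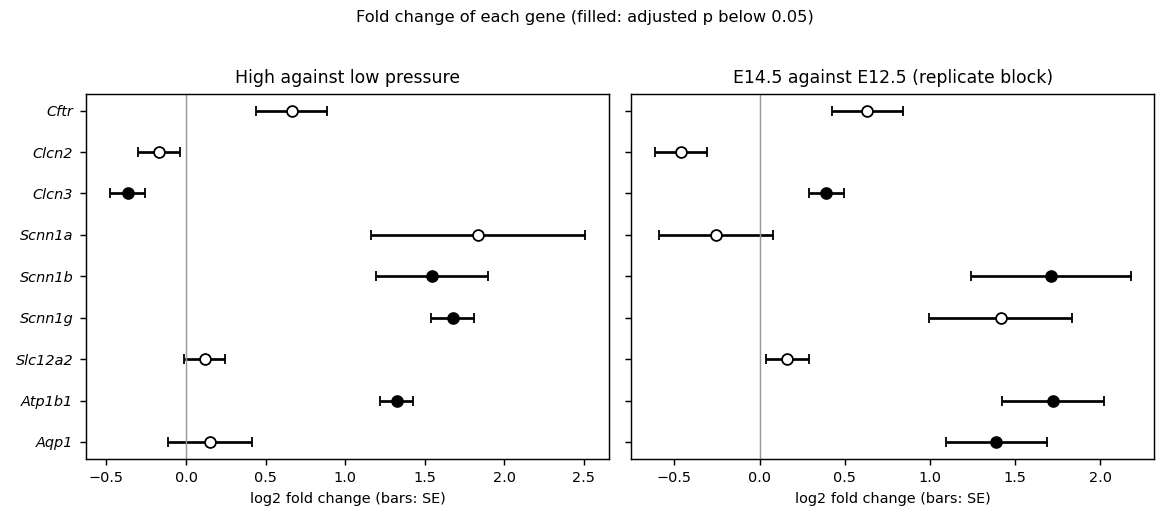
Log2 fold change of each of the 9 genes, high over low pressure in the left panel and E14.5 over E12.5 with the replicate number as a block in the right panel. Bars are SE and filled points have an adjusted p below 0.05 in edgeR. Atp1b1 and Scnn1b are filled and above 0 in both panels, and Clcn3 is filled on opposite sides of 0.

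The chloride pathways did not move together. Cftr, the cyclic AMP-activated chloride channel mutated in cystic fibrosis, had 19.9, 25.6 and 20.6 CPM at high pressure, against 13.49, 9.94 and 18.3 CPM at low pressure. The lowest culture at high pressure was just above the highest at low pressure. Its log2 fold change of 0.66 ± 0.22 (SE) missed the threshold (adjusted p = 0.0576). DESeq2 gave 0.65 with an adjusted p of 0.0250, and edgeR gave 0.91 with an adjusted p of 0.0016 without low pressure replicate 3, which had the highest Cftr of its group. Clcn3, a chloride-proton exchanger of endosomes, had 56.5, 60.7 and 62.9 CPM at high pressure, against 85.7, 79.3 and 67.2 CPM at low pressure. It was thus lower in each culture at high pressure. Its log2 fold change was -0.37 ± 0.11 (SE, adjusted p = 0.0427). That call was lost in 5 of the 6 fits that left out a library (all but the fit without low pressure replicate 3), at log2 fold changes of -0.41 to -0.29 and adjusted p of 0.0979 to 0.141. Clcn2, a channel of the plasma membrane that is present in fetal airway epithelium, had 23.7, 19.3 and 24.8 CPM at high pressure, against 24.6, 25.3 and 26.3 CPM at low pressure. High pressure replicate 3 lay inside the low pressure range. For Clcn2 the log2 fold change was -0.17 ± 0.13 (SE, adjusted p = 0.376).

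Aqp1, a water channel of endothelium, mesothelium and red cells, had 16.95, 17.8 and 21.3 CPM at high pressure, against 15.2, 11.0 and 24.4 CPM at low pressure. Low pressure replicate 3 was the highest of all 6 cultures, and the groups overlapped. For Aqp1 the log2 fold change was 0.15 ± 0.27 (SE, adjusted p = 0.713). It was -0.08 without low pressure replicate 2, and 0.51 with an adjusted p of 0.0287 without low pressure replicate 3, so the sign and the call both depend on single low pressure libraries. Leaving out low pressure replicate 3 took the number of genes called over the whole table to 6257, against 3905 with all libraries. It was 2411, 1894 and 2016 without high pressure replicates 1, 2 and 3.

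Markers of epithelium, the site of this transport, moved with pressure as well. Beside these counts, 14.0% of all genes tested rose and 12.2% fell. Of 17 epithelial markers 15 rose and 0 fell, with a median log2 fold change of 1.06, and their summed level was 2319 to 2447 CPM at high pressure against 1127 to 1279 CPM at low pressure. Epcam rose by 1.24, Cdh1 by 1.38 and Krt8 by 0.86 on the log2 scale. Of 12 endothelial markers 3 fell and 0 rose, with summed levels of 144 to 316 CPM at high pressure against 279 to 475.7 CPM at low pressure, and Cdh5, the junction protein of vessels, fell by 1.29 on the log2 scale. Pecam1 (-1.02, adjusted p = 0.0607) and Kdr (-0.70, adjusted p = 0.0880) did not pass edgeR's test. Of the other marker lists, 3 of 7 mesothelial markers and 2 of 7 leukocyte markers rose, 2 of 9 red cell markers fell, 1 of 7 smooth muscle markers rose and 2 fell, and none of 7 neuronal and glial or of 9 cardiac and skeletal muscle markers passed the test. The mesothelial list shares Krt19 with the epithelial list (147 CPM at high pressure against 64.9 CPM at low pressure). The mesothelial markers Wt1 and Upk1b did not pass the test, and Upk3b did.

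Members were also set against the summed epithelial markers, a measure chosen after the data were seen. That sum was itself higher at high pressure, at 2319 to 2447 CPM against 1127 to 1279 CPM. A member whose CPM did not differ between the pressures therefore comes out lower on this scale. Scnn1g had 11.7, 11.9 and 12.7 CPM per 1000 CPM of epithelial markers at high pressure, against 6.96, 7.16 and 7.82 at low pressure. Atp1b1 had 66.6, 72.2 and 73.3 at high pressure, against 57.7, 54.1 and 52.3 at low pressure. For both genes every culture at high pressure still exceeded every culture at low pressure. Scnn1b, at 3.15 to 4.93 against 1.43 to 3.17, and Scnn1a, at 2.65 to 3.94 against 0.175 to 3.05, overlapped on this scale, as did Cftr at 8.56 to 10.4 against 8.82 to 14.3. Slc12a2 had 99.7 to 142 per 1000 at high pressure against 184 to 240 at low pressure, and Clcn3 had 24.4 to 26.7 against 52.6 to 70.4, so both were lower without overlap. Clcn2, at 7.90 to 10.6 against 19.3 to 22.4, and Aqp1, at 7.28 to 9.07 against 9.79 to 19.1, were lower in the same way. Per 1000 CPM of endothelial markers Aqp1 ran the other way, with overlap. It was at 53.7 to 148 at high pressure against 31.9 to 87.3 at low pressure. Slc12a2, Clcn2 and Aqp1, lower per epithelial marker, overlapped between the pressures in CPM. No test was run on these ratios, and they were not computed for all genes.

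**Figure D3:**
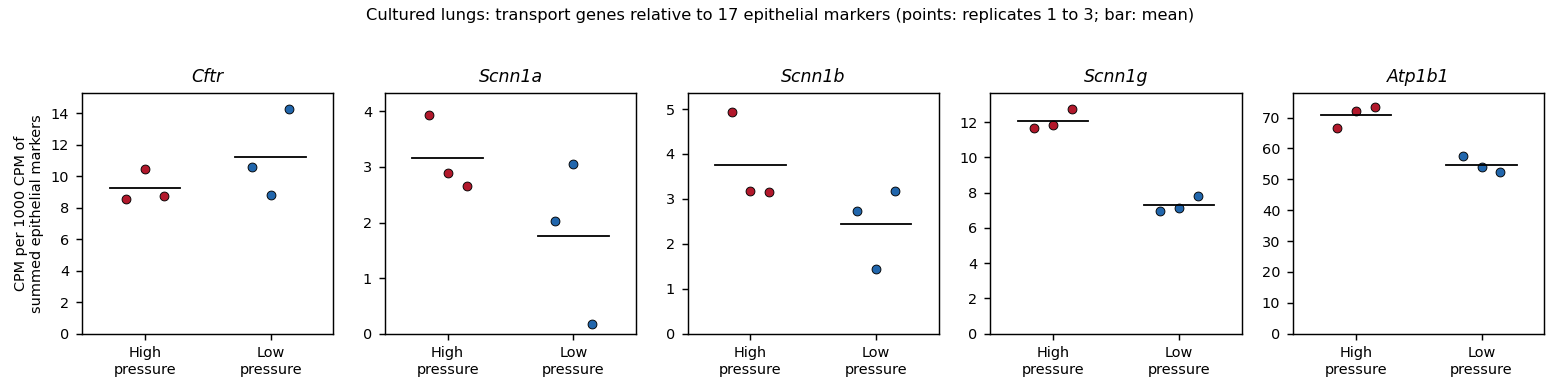
Level of Cftr, Scnn1a, Scnn1b, Scnn1g and Atp1b1 in the cultured lungs, in CPM per 1000 CPM of 17 summed epithelial markers, with axes from 0. Points are replicates 1 to 3 and bars are means. Scnn1g (11.7 to 12.7 at high pressure, 6.96 to 7.82 at low pressure) and Atp1b1 do not overlap between pressures, while Cftr, Scnn1a and Scnn1b do.

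The genes around these members were read from lists of the same pathway. Over all genes tested, 14.0% rose and 12.2% fell at high against low pressure. Of 13 tested sodium pump subunits, FXYD proteins and related pumps other than Atp1b1, 5 rose and 0 fell. Atp1b2 rose by 1.12 on the log2 scale, to 107 ± 16.3 CPM at high pressure against 49.2 ± 5.92 CPM at low pressure (SD, n = 3). Atp12a, a proton-potassium pump, rose by 2.05 on the log2 scale. Of 18 sodium channel regulators 6 rose and 1 fell. The channel-activating protease Prss8 rose by 1.25, the protease Furin by 0.71, and the protease inhibitors Spint1 and Spint2, which also stand on the epithelial list, by 1.17 and 1.29 on the log2 scale, while the kinase Sgk3 had a log2 fold change of -0.93 and was lower. Sgk3 was picked out after its value was seen.

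On the chloride side, 3 of 28 tested channels and exchangers rose and 4 fell, near the shares of all genes tested (14.0% and 12.2%). The anion transporter Slc26a9 had 5.79 ± 0.54 CPM at high pressure against 1.45 ± 0.35 CPM at low pressure (SD, n = 3), a log2 rise of 1.998. The calcium-activated chloride channel Ano1 rose by 0.54 and Ttyh1 by 1.34, and the sulfate transporter Slc26a2 fell by 0.70 on the log2 scale. Of 12 other cation chloride cotransporters and their kinases 4 rose and 2 fell. Among the kinases that control Slc12a2, Wnk2 rose by 0.50, Wnk3 fell by 1.33 and Oxsr1 fell by 0.33, and the transporter-like Slc12a9 rose by 0.56 on the log2 scale. Of 8 potassium channel genes 1 rose and 2 fell. Kcne3, which opens the potassium channel Kcnq1 in secretory epithelia, had 5.71 ± 1.81 CPM at high pressure against 48.6 ± 8.2 CPM at low pressure (SD over 3 libraries). Its log2 fold change was -3.09. In the time series Kcne3 averaged 4.02 CPM at E12.5, 2.58 CPM at E13.5 and 1.95 CPM at E14.5. High pressure thus lay nearer the fresh lungs and low pressure stood apart, with no test between the tables. Kcnk1 rose by 0.76 and Kcnma1 fell by 1.15 on the log2 scale. Of 18 receptor and cyclic AMP genes 6 rose and 3 fell, with Slc9a3r1 and Ezr, which tether Cftr to the cell surface, up by 1.19 and 0.94, Slc9a3r2 by 0.70 and the protein kinase A subunit Prkaca by 0.48 on the log2 scale. Of 6 other aquaporins only Aqp4 passed the test, with 7.59 ± 1.17 CPM at high pressure against 3.05 ± 0.40 CPM at low pressure (SD, n = 3). The part of epithelial content in these counts was not tested.

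In the time series the question was how the same genes change while the lung branches. Atp1b1, Scnn1b, Aqp1 and Clcn3 rose at E14.5 against E12.5 once the replicate number entered the fit as a block, and none of the other 5 members passed the test. All members except Scnn1a and Clcn2 had their highest stage mean at E14.5. The planned fit without that block called 0 of 14242 genes (0%), and so 0 members, in any stage comparison with edgeR's quasi-likelihood test. At an unadjusted p below 0.05 it had 1328 genes for E14.5 against E12.5, 977 for E14.5 against E13.5 and 123 for E13.5 against E12.5, and DESeq2 called 457, 270 and 0. Libraries with the same replicate number deviated together in this table, and the blocked values stand beside the planned ones. Replicates 2 and 3 of different stages deviated together as much as same-number libraries did, and only replicate 1 stood apart, so the numbers 2 and 3 are not shown to pair libraries. With a term for replicate 1 alone in place of the block, the same 4 members were called for E14.5 against E12.5, at adjusted p of 0.0217 to 0.0302. With the block, edgeR called 11.0% of genes for E14.5 against E12.5 (7.33% higher and 3.63% lower), 6.01% for E14.5 against E13.5 (4.15% higher and 1.86% lower) and 0.00702% for E13.5 against E12.5, which is 1 gene and no member. The median member log2 fold change for E14.5 against E12.5 with the block was 0.63, against -0.00336 over all genes tested. E14.5 lay wholly above E12.5 for 4 members and wholly below for 1, against 8.76% and 5.33% of all genes tested. It lay wholly above E13.5 for 3 members and wholly below for 0, against 7.84% and 4.14%. No member separated E13.5 from E12.5, where 1.59% of genes lay wholly above and 1.52% wholly below.

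Atp1b1 had 33.1, 30.7 and 24.7 CPM at E12.5, 33.4, 28.8 and 35.3 CPM at E13.5, and 68.1, 148 and 84.3 CPM at E14.5. The first 2 stages overlapped and every E14.5 library lay above both. Its log2 fold change was 1.72 ± 0.30 (SE, adjusted p = 0.0263) for E14.5 against E12.5 and 1.57 ± 0.30 (adjusted p = 0.0479) for E14.5 against E13.5, both with the block, against adjusted p of 0.0706 and 0.186 without it. For E14.5 against E12.5 the blocked call was lost without replicate 3 (1.67, adjusted p = 0.199), and for E14.5 against E13.5 without replicate 1 (1.81, adjusted p = 0.0818) or replicate 3 (1.70, adjusted p = 0.209). With replicate 1 of every stage left out and no block, E14.5 against E12.5 gave 2.07 with an adjusted p of 0.0300. Markers of cardiac and skeletal muscle moved in the same libraries. With the block 7 of 9 tested rose at E14.5 against E12.5, where 7.33% of all genes tested rose, and without it 0 were called. Their summed level was 7.92 to 40.5 CPM at E12.5, 12.7 to 121 CPM at E13.5, and 717, 1430 and 332 CPM in E14.5 replicates 1, 2 and 3. E14.5 replicate 2 was the highest library for both Atp1b1 and these markers. Their part in the rise of Atp1b1 was not tested.

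Of the sodium channel subunits, Scnn1b was close to the limit of detection until E14.5. It had 7, 4 and 6 counts at E12.5, 4, 3 and 4 counts at E13.5, and 30, 13 and 11 counts at E14.5, which is 0.337, 0.181 and 0.301 CPM, then 0.204, 0.156 and 0.195 CPM, then 1.501, 0.682 and 0.594 CPM. All E14.5 libraries exceeded all earlier ones. With the block the log2 fold change was 1.71 ± 0.47 (SE, adjusted p = 0.0389) for E14.5 against E12.5 and 2.24 ± 0.51 (adjusted p = 0.0275) for E14.5 against E13.5, against adjusted p of 0.209 and 0.208 without it. The call against E12.5 was lost whichever replicate number was left out, at 1.40, 1.61 and 2.01 with adjusted p of 0.205, 0.199 and 0.0762. The call against E13.5 was lost without replicate 1 (1.83, adjusted p = 0.239) or replicate 2 (2.27, adjusted p = 0.164).

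Scnn1g had 1.44, 1.22 and 0.551 CPM at E12.5, 0.920, 0.573 and 1.03 CPM at E13.5, and 4.60, 3.36 and 1.03 CPM at E14.5. E14.5 replicate 3 stayed at the level of the earlier stages, while the other E14.5 libraries were well above them. The blocked log2 fold change was 1.41 ± 0.42 (SE) for E14.5 against E12.5 and 1.66 ± 0.44 for E14.5 against E13.5, just short of the threshold at adjusted p of 0.0522 and 0.0501. Without replicate 3 these were 1.54 (adjusted p = 0.0196) and 2.38 (adjusted p = 0.00199). Scnn1a had 1.78, 1.90 and 3.26 CPM at E12.5, 1.48, 1.82 and 1.22 CPM at E13.5, and 2.45, 1.73 and 1.57 CPM at E14.5. The 3 stages overlapped, and the blocked log2 fold change for E14.5 against E12.5 was -0.26 ± 0.34 (SE, adjusted p = 0.666).

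Aqp1 had 16.6, 13.9 and 6.51 CPM at E12.5, 15.8, 15.5 and 17.3 CPM at E13.5, and 28.3, 33.9 and 32.4 CPM at E14.5. E14.5 stood clear of both earlier stages. The blocked log2 fold change for E14.5 against E12.5 was 1.39 ± 0.30 (SE, adjusted p = 0.0343), against an adjusted p of 0.147 without the block, and the call was lost without replicate 2 (1.42, adjusted p = 0.199). Against E13.5 it was 0.96 ± 0.29 (SE, adjusted p = 0.119). With the block 7 of 12 endothelial markers rose and 0 fell between E12.5 and E14.5, where 7.33% of all genes tested rose and 3.63% fell. Without the block 0 of the 12 were called. The endothelial sum was 546 to 853 CPM at E12.5, 586 to 829 CPM at E13.5 and 860 to 1185 CPM at E14.5. Per 1000 CPM of endothelial markers, Aqp1 was at 11.9 to 20.9 at E12.5, 19.1 to 26.5 at E13.5 and 23.9 to 37.7 at E14.5. On this scale E14.5 lay above E12.5 without overlap, and E13.5 overlapped both. No test was run on this ratio, and it was not computed for all genes. Red cell markers ran the other way: with the block 4 of 10 fell and 0 rose, and without it 0 were called. Their sum was 2907 to 3592 CPM at E12.5, 1262 to 2155 CPM at E13.5 and 523 to 1394 CPM at E14.5. The adult globins Hba-a1 and Hba-a2 had 0 counts in every group, and 12 of the 14 red cell genes chosen were among the genes counted. Whether these 0 counts reflect the lung or the way reads were counted was not tested. The globin Hbb-y made up the largest part of the red cell sum. It averaged 2418 CPM at E12.5 and 902 CPM at E14.5. Of the red cell markers that are not globins, Slc4a1 averaged 128 CPM at E12.5 and 26.2 CPM at E14.5. Alas2 stayed nearer its level, averaging 56.4 CPM at E12.5 and 51.3 CPM at E14.5. Whether the fall reflects fewer red cells, less globin RNA in each or the set of globins that had counts was not tested. The part of endothelial content in the rise of Aqp1 was not tested.

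Of the chloride genes, Clcn3 had 33.8, 49.2 and 56.3 CPM at E12.5, 30.0, 57.3 and 50.6 CPM at E13.5, and 41.3, 79.9 and 64.4 CPM at E14.5. The stages overlapped, with replicate 1 the lowest library of each, and within every replicate number E14.5 exceeded both earlier stages. The blocked log2 fold change was 0.39 ± 0.10 (SE, adjusted p = 0.0308) for E14.5 against E12.5 and 0.43 ± 0.10 (adjusted p = 0.0321) for E14.5 against E13.5, against adjusted p of 0.964 and 0.99995 without the block. The call against E12.5 was lost without replicate 1 (0.44, adjusted p = 0.0757) or replicate 2 (0.21, adjusted p = 0.313), and the call against E13.5 whichever replicate was left out (0.42, 0.37 and 0.43, with adjusted p of 0.181, 0.149 and 0.0585).

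Cftr had 35.3, 36.9 and 23.0 CPM at E12.5, 28.1, 53.2 and 43.7 CPM at E13.5, and 43.7, 57.3 and 46.8 CPM at E14.5. E14.5 lay above E12.5 in every library and overlapped E13.5. The blocked log2 fold change for E14.5 against E12.5 was 0.63 ± 0.21 (SE, adjusted p = 0.0993), and 0.82 with an adjusted p of 0.00856 without replicate 1. Clcn2 had 14.4, 13.45 and 14.6 CPM at E12.5, 14.8, 14.4 and 10.1 CPM at E13.5, and 11.3, 9.08 and 10.5 CPM at E14.5. E14.5 lay below E12.5 in every library, at a blocked log2 fold change of -0.46 ± 0.15 (SE) that did not pass the test (adjusted p = 0.0707). Slc12a2 had 193, 326 and 297 CPM at E12.5, 178, 348 and 347 CPM at E13.5, and 184, 313 and 452 CPM at E14.5. Replicate 1 was the lowest library of every stage and the stages overlapped. Its blocked log2 fold change for E14.5 against E12.5 was 0.16 ± 0.13 (SE, adjusted p = 0.453).

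Whether the step between E13.5 and E14.5 differed from the step between E12.5 and E13.5 was tested directly. Scnn1b, with log2 values of 2.24 for the later step and -0.53 for the earlier step, had the largest difference of the 9 members at 2.76 ± 0.99 (SE), with an adjusted p of 0.513 in the blocked fit. The difference was 1.42 ± 0.53 (adjusted p = 0.627) for Atp1b1. No member passed the threshold in either fit, and edgeR called 0.0211% of genes (3 genes) with the block and 0 without it, where 233 genes had an unadjusted p below 0.05 and DESeq2 called 4.

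In the wider lists for E14.5 against E12.5 with the block, 4 of 11 tested sodium pump genes rose, 1 fell and 6 did not pass the test, with a median log2 fold change of 0.0885. Over all genes tested in this fit, 7.33% rose and 3.63% fell. Atp1b2 rose by 1.35 and the pump regulators Fxyd3 and Fxyd1 by 2.25 and 1.504 on the log2 scale, and Fxyd6 fell by 0.45. Fxyd3 was near the floor, with 17 counts over the 3 libraries at E12.5 and 75 at E14.5 (means of 0.267 and 1.29 CPM). Of 17 sodium channel regulators 3 rose and 2 fell. The glucocorticoid receptor Nr3c1 rose by 0.67, the mineralocorticoid receptor Nr3c2 by 1.95 and the ubiquitin ligase Nedd4l, which removes the sodium channel from the membrane, by 0.41 on the log2 scale. Hsd11b2, which inactivates glucocorticoid and so shields Nr3c2 from it, fell by 1.501 on the log2 scale, to 7.29 ± 4.23 CPM at E14.5 against 18.9 ± 2.87 CPM at E12.5 (SD, n = 3). The channel relative Asic2 fell by 2.11 on the log2 scale. Nr3c2 and Asic2 were low too. Over 3 libraries Nr3c2 had 29 counts at E12.5 and 103 at E14.5, and Asic2 had 98 and 20.

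Of 26 chloride and bicarbonate genes 2 rose (Ano1 by 0.52 and Ttyh2 by 0.49 on the log2 scale) and 1 fell (Slc4a7, by 0.34). Those counts are near the shares of all genes tested (7.33% and 3.63%). Of 12 cotransporters and kinases Stk39, a kinase that activates Slc12a2, rose by 0.41, while Wnk3 fell by 0.75 and Slc12a7 by 0.45 on the log2 scale. Of 9 potassium channel genes only Kcnk1 passed the test, rising by 0.51, and of 18 receptor and cyclic AMP genes only Vipr1, a receptor for vasoactive intestinal peptide, which fell by 1.92 on the log2 scale. Vipr1 was near the floor, with 57 counts over the 3 libraries at E12.5 and 13 at E14.5. None of 3 other tested aquaporins passed. Only 1 of 17 epithelial markers rose and 0 fell, with a median log2 fold change of 0.22, and their summed level was 693 to 1201 CPM at E12.5, 793 to 1057 CPM at E13.5 and 775 to 1466 CPM at E14.5. Of the remaining markers, 2 of 7 mesothelial, 2 of 7 smooth muscle, 1 of 7 leukocyte and 1 of 7 neuronal and glial genes rose.

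Levels between members can be set side by side only per length, here as CPM per kilobase of merged exon in GENCODE M21. At high pressure the order of mean levels was Atp1b1 (54.5), Slc12a2 (26.2), Scnn1g (9.59), Aqp1 (7.12), Clcn2 (3.75), Clcn3 (3.52), Scnn1b (3.37), Cftr (2.83) and Scnn1a (1.81). Clcn2, Clcn3, Scnn1b and Cftr overlapped each with the next in this order, and the other neighbours did not. At low pressure the order was Slc12a2 (24.1), Atp1b1 (21.8), Aqp1 (6.42), Clcn3 (4.54), Clcn2 (4.22), Scnn1g (3.00), Cftr (1.79), Scnn1b (1.16) and Scnn1a (0.503). Only 3 neighbouring pairs were clear of each other there, namely Atp1b1 above Aqp1, Clcn2 above Scnn1g and Scnn1g above Cftr.

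In the time series Slc12a2 led at E12.5 (24.9) and E13.5 (26.7), with Atp1b1 next (9.58 and 10.5), followed by Aqp1, Cftr, Clcn3, Clcn2, Scnn1a, Scnn1g and Scnn1b in that order at both stages. Neighbours overlapped from Aqp1 to Clcn2 at E12.5, and for Aqp1 with Cftr and Clcn3 with Clcn2 at E13.5, as did Scnn1a with Scnn1g at both. At E14.5 Atp1b1 (32.5) stood level with Slc12a2 (29.0), their libraries overlapping, followed by Aqp1 (12.004), Cftr (6.34), Clcn3 (3.62), Clcn2 (1.71), Scnn1g (1.002), Scnn1a (0.464) and Scnn1b (0.352), of which the last 4 overlapped each with the next. The sodium channel subunits were the lowest members at every stage, between 0.0704 (Scnn1b at E13.5) and 1.002 CPM per kilobase in group means. All 45 ranks were the same when library sizes were computed over the 15 libraries together.

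The ratio of Cftr to Scnn1g RNA, a chloride channel to a sodium channel subunit, was taken per length in each library. It was 0.265 to 0.339 at high pressure and 0.475 to 0.704 at low pressure, without overlap, and 9.41 to 16.0 at E12.5, 11.7 to 35.7 at E13.5 and 3.66 to 17.6 at E14.5. Scnn1g thus exceeded Cftr in every cultured library, and Cftr exceeded Scnn1g in every library of the time series. Culture and fresh isolation were counted in different tables, and culture and table cannot be told apart in this difference. Within the channel, Scnn1g exceeded Scnn1a 4.09-fold to 6.64-fold at high pressure and 3.24-fold to 61.8-fold at low pressure, the top value being low pressure replicate 3 with its few Scnn1a counts. At E12.5 the same ratio was 0.234 to 1.12, at E13.5 0.434 to 1.16 and at E14.5 0.905 to 2.68.

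**Figure D4:**
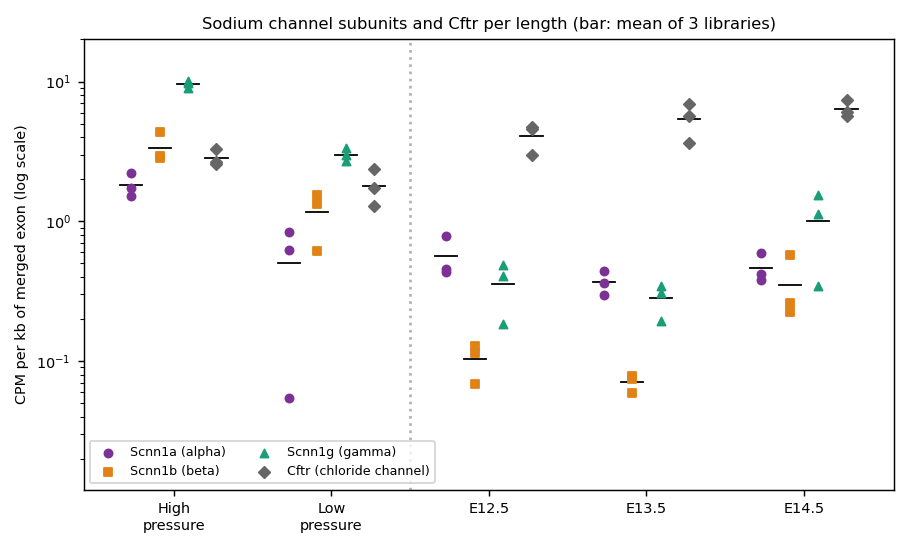
Level of the sodium channel subunits and of Cftr in CPM per kilobase of merged exon (log axis) in every library, with cultures left of the dotted line and the stages E12.5, E13.5 and E14.5 right of it. Bars are means of 3 libraries. Scnn1g lies above Cftr in the cultures (Cftr over Scnn1g is 0.265 to 0.704) and below it at all 3 stages (3.66 to 35.7).

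The genes whose profile over the 15 libraries came closest to each member were found by Pearson's r of log2 CPM among 10700 or 10701 genes that averaged 5 CPM or more. The libraries share their table, their culture or their stage, so a high r here describes those blocks more than single libraries. Atp1b1 was closest to Lmo7 (0.988), Hopx (0.974) and Mical2 (0.964). Scnn1g was closest to Trabd2b (0.986), Bcam (0.978) and Cd9 (0.977), and Scnn1b to Cd9 (0.975), Trabd2b (0.970) and Scnn1g itself (0.968). Scnn1a was closest to Rassf7 (0.921), Lrrc42 (0.911) and Zfp7 (0.897). Cftr was closest to Acsl5 (0.937), Serpinb6a (0.933) and Fam115c (0.931), Clcn2 to Lss (0.959), Apbb3 (0.957) and Pgf (0.954), and Clcn3 to Fam63b (0.957), Klhl24 (0.941) and Inpp4a (0.938). Slc12a2 was closest to Sec24a (0.923), Cab39 (0.918) and Sntb2 (0.916), and Aqp1 to Csgalnact1 (0.934), Figf (0.913) and Mtus1 (0.909).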

How the data were processed

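RNA was sequenced from 15 libraries in 5 groups of 3. The submitters' processing notes name mm10 as the build and, as tools, cutadapt 1.6, Bowtie 1.1.1, TopHat, HTSeq and DESeq2. Annotation, strand setting and filters: not given in the sources used here. Of 8 deposited tables, the 2 tables of raw counts per gene that the authors deposited were used, and no per-sample column was left out (0 unmapped).

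Counts of the 2 tables entered separate fits in edgeR 4.0.16 under R 4.3.3 (TMM, filterByExpr by group, robust quasi-likelihood F-test, Benjamini-Hochberg adjustment over all genes tested, threshold 0.05). The SE is the size of the log2 fold change divided by the square root of F. The planned stage fits had no block. In the time series the 9 pairs of libraries with the same replicate number had deviations from their group means that correlated at 0.397 to 0.838, against -0.736 to 0.625 for the 18 other pairs. Replicate 1 set this apart: its same-number pairs reached 0.786 to 0.838, while among replicates 2 and 3 same-number pairs (0.397 to 0.606) and other pairs (0.454 to 0.625) were alike. The numbers come from the sample titles, which do not say what they stand for, and fits with them as a block are given too. Alternatives were DESeq2 1.42.0, its size factors, no filter, a batch term for replicate 1 and leaving out libraries. No 2 libraries of a group agreed within sampling noise.

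Named genes are the 9 members, up to 4 called genes of each transport list with the smallest p (pressure, and E14.5 against E12.5 with the block), the first 3 markers of each marker list and the 3 genes most like each member. Some of these are not reported here. Sgk3, and Nedd4l for the stages, were named after their values were seen. The members and the lists were chosen with earlier results of these data known.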

Additional observations from a re-analysis of the deposited data

How the results depend on the processing

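At high against low pressure the calls of Scnn1g and Atp1b1 were kept under every alternative run. The count of genes called was 1121 when the 15 libraries shared a fit, where Clcn3 had a log2 fold change of -0.37 (adjusted p = 0.429), and 1894 to 6257 with each library left out. Cftr passed without the filter (0.67) and with DESeq2 (0.65), and Scnn1a with DESeq2 (1.83). The replicate numbers did not pair the cultures: same-number deviations correlated at -0.0124 to 0.0461 and others at -0.0422 to 0.0219. With the replicate block 3137 genes were called, Clcn3 had -0.36 (adjusted p = 0.0890) and Scnn1a 2.24 (adjusted p = 0.0343). Leaving out each cultured library gave -0.0794 to 0.51 for Aqp1, 1.26 to 1.39 for Atp1b1, 0.47 to 0.91 for Cftr, -0.25 to -0.06 for Clcn2, -0.46 to -0.29 for Clcn3, 1.31 to 2.41 for Scnn1a, 1.24 to 1.81 for Scnn1b, 1.61 to 1.76 for Scnn1g and 0.00 to 0.22 for Slc12a2.

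For E14.5 against E12.5, 9 genes were called without the filter, 457 with DESeq2, 1561 with the replicate block, 1592 with a batch term for replicate 1, 1119 without replicate 1 of every stage, 1187, 314 and 852 with the block and replicate 1, 2 or 3 left out, and 0 to 3 with a library left out. For E14.5 against E13.5 the counts were 270 with DESeq2, 856 with the block, 808 with the batch term, 62 without replicate 1 of every stage and 176, 128 and 918 with the block and replicate 1, 2 or 3 left out. For E13.5 against E12.5 they were 1 with the block and with the batch term, and 0 to 2 with the block and a number left out. For the difference between the steps they were 4 with DESeq2, 3 with the block, 2 with the batch term, 1 without replicate 1 of every stage and 0 to 94 with the block and a number left out. Members that changed sign were not past the threshold in these fits. The step difference of Slc12a2 was -0.0162 with DESeq2 size factors, -0.0150 with DESeq2 and -0.0202 without replicate 1 of every stage, where Clcn3 had 0.0307 for E13.5 against E12.5. With a library left out, E13.5 against E12.5 ranged from -0.10 to 0.35 for Slc12a2, -0.20 to 0.22 for Clcn3 and -0.21 to 0.0399 for Clcn2, E14.5 against E12.5 from -0.48 to 0.0594 for Scnn1a and -0.13 to 0.49 for Slc12a2, and E14.5 against E13.5 from -0.23 to 0.39 for Slc12a2. The step difference ranged from -0.59 to 0.28 for Cftr, -0.0191 to 0.82 for Clcn3 and -0.49 to 0.32 for Slc12a2. With the block and replicate 1 left out, Clcn3 had 0.0245 for E13.5 against E12.5 and Slc12a2 -0.0290 for the step difference. Without replicate 2, Scnn1g had 0.14 for E13.5 against E12.5, and the step difference was 0.0161 for Cftr and 0.0536 for Clcn2. Without replicate 3, E13.5 against E12.5 gave 0.0717 for Clcn2, 0.0346 for Clcn3, -0.00322 for Slc12a2 and -0.0292 for Atp1b1, Slc12a2 had -0.0901 for E14.5 against E13.5 and -0.0934 for E14.5 against E12.5, where Scnn1a had 0.16, and the step difference was 0.19 for Cftr and -0.0869 for Slc12a2. The cause of these shifts was not tested. With 3 libraries a group, and with 3 to 30 counts behind each Scnn1b value of the time series, small differences were not detectable.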
